A study of Mus musculus with 12 samples.

Results

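The 10 genes Fabp5, Fabp4, Cd36, Apoe, Abca1, Abcg1, Nr1h3, Pparg, Lpl and Plin2 were followed in peritoneal macrophages (Mϕ) during resolution of zymosan-induced peritonitis. They were found by symbol among the 47643 gene identifiers of each deposited table, and all 10 of 10 had 1 row there and passed the minimum level for testing. Female C57BL/6 mice aged 8 to 12 weeks received zymosan (5 mg/kg), a yeast cell wall preparation, into the peritoneal cavity. From day 1 on they were injected daily with compound III (CIII, 25 mg/kg), an inhibitor of the prostaglandin E2 synthase mPGES-1, or with its vehicle (VEH) of Tween-80, carboxymethyl cellulose and NaCl. At day 6, F4/80lo Mϕ (CD45+, CD11b+, F4/80lo, MerTKlo, Ly6G-, MHCII+) and F4/80hi Mϕ (CD45+, CD11b+, F4/80hi, MerTKhi) were sorted by FACS. Each of the 4 groups had 3 libraries of 3′ mRNA-seq with unique molecular identifiers, 12 in all. The labels name no engineered allele, all mice had received zymosan, and mice without zymosan were not analysed here.

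Mϕ that clear dying cells take up large amounts of fatty acids and cholesterol and must store, burn or export them. Cd36 brings fatty acids and oxidised lipoproteins into the cell, Lpl splits triglycerides outside the cell, and the fatty acid binding proteins encoded by Fabp4 and Fabp5 carry fatty acids inside it. Plin2 coats lipid droplets. The transporters encoded by Abca1 and Abcg1 hand cholesterol to acceptors outside the cell, and apolipoprotein E, encoded by Apoe, is such an acceptor secreted by Mϕ. Nr1h3 encodes the oxysterol receptor LXRα, which drives Abca1, Abcg1 and Apoe, and Pparg encodes the fatty acid receptor PPARγ, which drives Fabp4 and Cd36.

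Libraries held between 426624 and 3389448 reads on genes. The libraries with replicate number 3 stood apart in all 4 groups. The gene Gm42418, which overlaps ribosomal RNA, took 2.65% to 14.3% of their reads, whereas in the others its share did not exceed 0.579%. In F4/80hi Mϕ the number 3 libraries were also low in genes of resident peritoneal Mϕ. The summed level of the 10 resident genes (Adgre1, Mertk, Gata6, Timd4, Icam2, Cd9, Prg4, Alox15, Selp and Garnl3) was 867.0 and 1109 TMM-scaled reads per 1e+06 reads (rpm) in F4/80hi VEH 3 and CIII 3, against 3892 to 5924 in the other F4/80hi libraries and 702.1 to 1728 in F4/80lo Mϕ. F4/80hi VEH 3 held 1411 rpm of the monocyte receptor gene Ccr2, where F4/80hi VEH 1 and 2 held 53.5 and 19.5. The 10 genes of monocyte-derived Mϕ were H2-Aa, H2-Ab1, H2-Eb1, Cd74, Ccr2, Irf4, Fcrls, Cd226, Retnla and Ly6c2. Their summed level was 5375 to 26391 rpm in F4/80lo Mϕ and 1256 to 15106 in F4/80hi Mϕ. In F4/80hi CIII 3, the library with 15106, H2-Aa, H2-Ab1, H2-Eb1 and Cd74 held 3842, 4188, 3762 and 2469 rpm. The H2 genes encode MHCII, on which the F4/80lo Mϕ were gated. Several results below are also given without number 3.

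**Figure D1:**
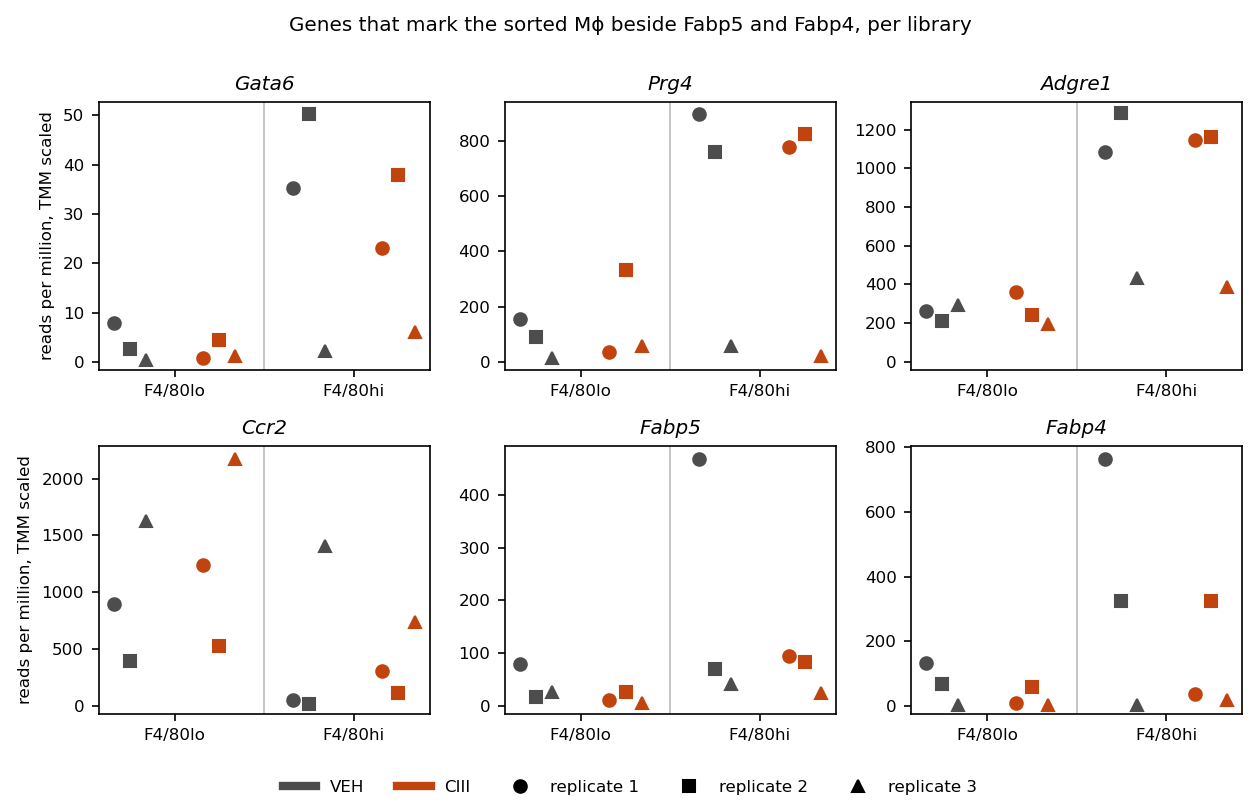
Each point is 1 library, with TMM-scaled rpm on a linear vertical axis and the VEH and CIII libraries of F4/80lo and F4/80hi Mϕ side by side. In F4/80hi Mϕ the number 3 libraries (triangles) held at most 6.03 rpm of Gata6 and at most 431.3 of Adgre1, below the other F4/80hi libraries, and the lowest values of Fabp5 and Fabp4.

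The cell types that make much Fabp4, Cd36, Lpl and Plin2 outside the Mϕ lineage were looked for. Of the 6 adipocyte genes, Adipoq, Lep, Retn and Cidec were at 0 in every library, Cfd had reads in 1 library, and Plin1 reached 18.1 rpm in F4/80hi VEH 2. The summed level of the adipocyte genes was 0 to 1.14 rpm in F4/80lo VEH, 0 to 0.727 in F4/80lo CIII, 0 to 18.1 in F4/80hi VEH and 1.81 to 3.91 in F4/80hi CIII. The 6 endothelial genes summed to at most 12.4 rpm and Emcn, Tek and Gpihbp1 were at 0 throughout, while the 6 mesothelial genes summed to at most 2.24. The 8 neutrophil genes summed to at most 98.6 rpm, the 6 B cell genes to at most 154.8, and the 6 T and NK cell genes to at most 15.7. The 6 dendritic cell genes summed to 7.31 to 338.2 rpm in F4/80lo Mϕ and to 2.61 to 25.1 in F4/80hi Mϕ. The 4 myeloid genes Itgam, Csf1r, Lyz2 and Ptprc were read in every library.

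The promoters of 6 of the 10 genes matched the RefSeq table of GRCm38.p6 (Cd36, Apoe, Abca1, Nr1h3, Pparg and Plin2). Fabp5, Fabp4, Abcg1 and Lpl had no entry. The 250 bases before the start of Abca1 (chr4:53159896-53160145, minus strand) are shown because Abca1 was the only one of the 10 genes whose VEH and CIII libraries did not overlap in F4/80hi Mϕ. The same was so, in either direction, for 10.5% of all genes tested there. Capitals mark, from left to right, the E-box CACGTG, the imperfect repeat of TGACCG and TAACC with 4 bases between them, known as the LXR element of Abca1, and the TATA box TATAAA.
Abca1: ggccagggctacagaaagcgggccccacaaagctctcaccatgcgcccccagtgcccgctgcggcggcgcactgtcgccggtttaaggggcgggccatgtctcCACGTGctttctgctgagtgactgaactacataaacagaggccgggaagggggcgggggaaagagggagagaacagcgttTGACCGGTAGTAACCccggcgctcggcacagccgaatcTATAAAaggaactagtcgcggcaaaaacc
The LXR element lay 67 to 53 bases before the start. The 250 bases before the start of Plin2 (chr4:86670060-86670309, minus strand) are shown because Plin2 was lower in F4/80lo than in F4/80hi Mϕ in every pair of libraries, as were 5.12% of all genes tested. Capitals mark a receptor half-site (AGGTCA, here on the opposite strand as TGACCT).
Plin2: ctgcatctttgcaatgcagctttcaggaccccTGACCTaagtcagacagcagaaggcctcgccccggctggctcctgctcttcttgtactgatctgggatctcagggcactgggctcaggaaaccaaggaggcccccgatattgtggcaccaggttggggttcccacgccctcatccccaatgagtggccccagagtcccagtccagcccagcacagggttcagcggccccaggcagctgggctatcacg
Both strands were searched in all 32851 promoters of the table over the same 250 bases. The LXR element (TGACCG, any 4 bases, TAACC) was written after the Abca1 promoter had been read and was found in 4 promoters (0.0122%), and among the 10 genes only in Abca1. AGGTCA was found in 14.0% of the promoters and in those of Plin2, Cd36 and Pparg, CACGTG in 6.02% and in that of Abca1, and TATAAA in 12.4% and in those of Abca1, Apoe and Pparg. The half-site AGGTCA repeated after 1 base, a spacing known for PPAR, occurred in 0.0335% and repeated after 4 bases, a spacing known for LXR, in 0.0152% of the promoters, and in none of these 6 genes within this window. A match describes the letters only.

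Effects of mPGES-1 inhibition were compared within each subpopulation, on the deposited normalized counts. In F4/80lo Mϕ, 0 of the 10 genes passed limma's test at an adjusted p under 0.05, and 0% of the 10718 genes tested did. An unadjusted p under 0.05 was reached by 0 of the 10 genes and by 2.70% of all genes, and the VEH and CIII libraries were apart for 0 of the 10 genes and for 8.73% of all genes. In F4/80hi Mϕ, 0 of the 10 genes and 0% of the 10499 genes tested passed at an adjusted p under 0.05. There 1 of the 10 genes (Abca1) and 3.93% of all genes had an unadjusted p under 0.05, and the libraries were apart for that 1 gene and for 10.5% of all genes. When libraries were blocked by replicate number, an unadjusted p under 0.05 was reached by 1 of the 10 genes (Apoe) and 6.89% of all genes in F4/80lo Mϕ, and by 4 of the 10 (Abca1, Apoe, Lpl and Fabp5) and 11.3% of all genes in F4/80hi Mϕ, and none passed the adjustment (smallest limma adjusted p 0.682 and 0.198). On the whole reads recovered from the tables, edgeR called 0 genes in either subpopulation, and DESeq2 called 2 genes for F4/80lo and 0 for F4/80hi Mϕ (where it gave an adjusted p for 1334 genes), none of them among the 10. With 3 libraries in each arm, 0.1 is the smallest p of an exact permutation test. The median log2 fold change (CIII minus VEH) of the 10 genes was -0.44 for F4/80lo and 0.23 for F4/80hi Mϕ, beside -0.05 and 0.05 over all genes tested. In sorted bulk libraries, fewer cells of a kind and less RNA per cell cannot be told apart.

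Fabp5 (chr3:10012548-10016607 of GRCm38, plus strand) was named in the study from these same libraries, so its values here describe the libraries and are no independent evidence. In F4/80lo Mϕ the normalized counts of Fabp5 were 81.5, 16.7 and 25.6 in VEH 1 to 3 and 11.3, 27.4 and 6.63 in CIII 1 to 3. The F4/80hi libraries held 442.8, 65.3 and 39.8 with VEH and 85.2, 76.9 and 22.4 with CIII. The high values of VEH came from library 1 in both subpopulations, and the treatments overlapped in both. Means were 41.3 ± 35.1 (SD, n = 3) with VEH and 15.1 ± 10.9 with CIII in F4/80lo Mϕ, and 182.6 ± 226 with VEH and 61.5 ± 34.1 with CIII in F4/80hi Mϕ. Fabp5 had log2 fold changes of -1.29 ± 0.69 (SE, 95% interval -2.81 to 0.23, limma, adjusted p = 0.9996) for F4/80lo and -0.98 ± 0.86 (interval -2.91 to 0.95, limma, adjusted p = 0.992) for F4/80hi Mϕ. Fabp5 was lower with CIII for 2 of 3 replicate numbers in each subpopulation and higher for number 2. Without VEH 1 the log2 fold change of Fabp5 was -0.64 in F4/80lo Mϕ and 0.05 in F4/80hi Mϕ, so the lower mean in the latter rests on that library. Without the number 3 libraries it was -1.03 for F4/80lo and -1.07 for F4/80hi Mϕ.

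Fabp4 (chr3:10204088-10208576, minus strand) lies 187480 bases beyond Fabp5 on the same chromosome, with Fabp9 between them. Its normalized counts in F4/80lo Mϕ were 137.3, 70.6 and 1.67 with VEH and 7.80, 59.4 and 3.32 with CIII. The F4/80hi values of Fabp4 were 723.3, 305.7 and 4.19 with VEH and 32.5, 298.0 and 16.4 with CIII. Fabp4 was lowest in the number 3 libraries of both treatments, and libraries of number 2 differed little between treatments. This gave log2 fold changes of -1.17 ± 1.33 (limma, adjusted p = 0.9996) for F4/80lo and -0.91 ± 1.69 (limma, adjusted p = 0.992) for F4/80hi Mϕ. Without the number 3 libraries the values of Fabp4 were -2.11 in F4/80lo (limma, adjusted p = 0.891) and -2.24 in F4/80hi Mϕ (limma, adjusted p = 0.685), and without VEH 1 the values were -0.07 and 0.49. In F4/80hi Mϕ the value was also -0.13 without VEH 2 and -0.07 without CIII 3, so it hung on several single libraries.

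Cd36 (chr5:17781690-17888801, minus strand), the scavenger receptor and fatty acid transporter, had normalized counts of 633.0, 471.1 and 237.5 with VEH and 241.9, 253.6 and 284.1 with CIII in F4/80lo Mϕ. Cd36 in F4/80hi Mϕ had 652.8, 432.4 and 228.5 with VEH and 667.8, 519.2 and 580.4 with CIII. VEH 3 was the lowest VEH library in both subpopulations, and the CIII libraries lay close together. Cd36 had log2 fold changes of -0.67 ± 0.40 (limma, adjusted p = 0.9996) for F4/80lo and 0.55 ± 0.42 (limma, adjusted p = 0.992) for F4/80hi Mϕ. The difference between these responses was -1.22 ± 0.59 (interval -2.48 to 0.04, limma, adjusted p = 0.9993) over the 12 libraries, and -1.29 (interval -2.26 to -0.31, limma, adjusted p = 0.992) without number 3. Without the number 3 libraries the log2 fold change was -1.14 in F4/80lo (limma, adjusted p = 0.891) and 0.15 in F4/80hi Mϕ. Without VEH 1 the values of Cd36 were -0.37 and 0.90. Lpl (chr8:68880491-68907448, plus strand), the secreted lipase, had 1005, 2178 and 225.5 normalized counts with VEH and 411.4, 925.2 and 462.1 with CIII in F4/80lo Mϕ. Lpl in F4/80hi Mϕ had 753.9, 1624 and 295.6 with VEH and 451.2, 918.2 and 248.9 with CIII. Number 2 held the most Lpl in each of the 4 groups, and with CIII all 3 numbers were lower in F4/80hi and 2 of 3 in F4/80lo Mϕ, with overlapping groups. Lpl had log2 fold changes of -0.50 ± 0.69 (limma, adjusted p = 0.9996) for F4/80lo and -0.60 ± 0.66 (limma, adjusted p = 0.992) for F4/80hi Mϕ. Without the number 3 libraries they were -1.26 (interval -2.35 to -0.17, limma, adjusted p = 0.891) and -0.78 (interval -2.04 to 0.48, limma, adjusted p = 0.723). The F4/80hi value of Lpl was -0.0094 without VEH 2 and -1.24 without VEH 3.

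Plin2 (chr4:86648386-86670060, minus strand), the lipid droplet coat gene, had normalized counts of 890.1, 483.9 and 531.6 with VEH and 788.8, 731.0 and 631.2 with CIII in F4/80lo Mϕ. Plin2 in F4/80hi Mϕ had 1405, 889.6 and 723.2 with VEH and 1028, 1511 and 1078 with CIII. The treatments overlapped in both, and library 1 was the highest with VEH. Plin2 had log2 fold changes of 0.22 ± 0.37 (interval -0.58 to 1.02, limma, adjusted p = 0.9996) for F4/80lo and 0.30 ± 0.40 (interval -0.61 to 1.20, limma, adjusted p = 0.992) for F4/80hi Mϕ. When libraries were left out, they ran from 0.054 to 0.49 and from 0.087 to 0.57.

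**Figure D2:**
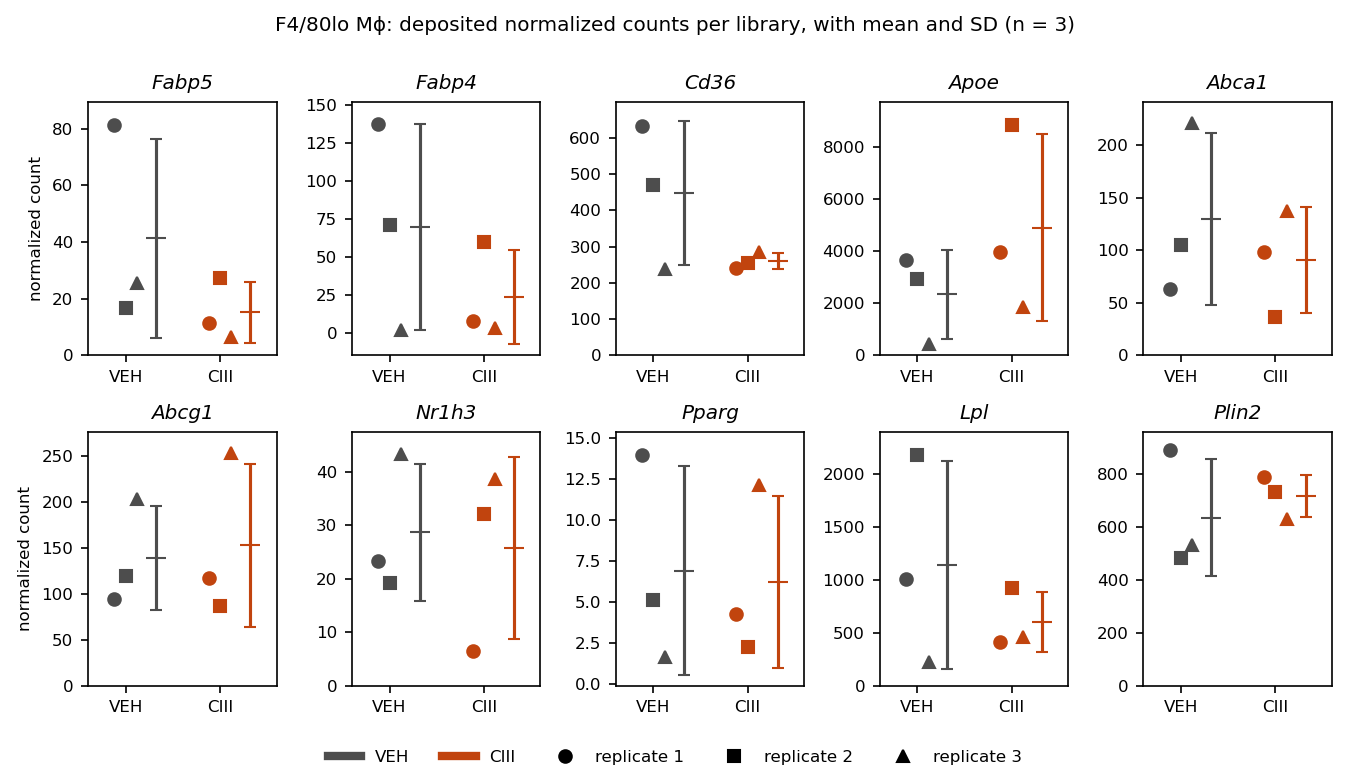
Deposited normalized counts of the 10 genes in F4/80lo Mϕ on linear axes, 1 panel per gene and 1 point per library, with the mean and SD (n = 3) of VEH and CIII beside the points. For none of the 10 genes did the VEH and CIII libraries lie apart, and number 3 (triangles) held the lowest Fabp4 values, 1.67 and 3.32.

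Abca1 (chr4:53030787-53159895, minus strand), the cholesterol exporter and LXR target whose promoter is printed above, had 51.9, 81.0 and 147.8 normalized counts in VEH 1 to 3 and 293.8, 193.5 and 191.5 in CIII 1 to 3 of F4/80hi Mϕ. Each CIII library lay above each VEH library for this gene, and the treatments were apart, in either direction, for 10.5% of all genes. The means were 93.5 ± 49.2 (SD, n = 3) and 226.3 ± 58.5, and the log2 fold change was 1.37 ± 0.43 (interval 0.40 to 2.33), with a limma adjusted p of 0.992 and an exact permutation p of 0.1, the smallest the design allows. Abca1 was higher with CIII for 3 of 3 replicate numbers, and its log2 fold change was 1.86 (limma, adjusted p = 0.685) without the number 3 libraries and 1.01 to 1.76 without any single library. In F4/80lo Mϕ the normalized counts of Abca1 were 62.8, 105.3 and 220.5 with VEH and 97.9, 36.6 and 137.1 with CIII, with overlapping treatments and a log2 fold change of -0.52 ± 0.56 (interval -1.74 to 0.71, limma, adjusted p = 0.9996). The response of Abca1 in F4/80lo Mϕ less its response in F4/80hi Mϕ was -1.88 ± 0.78 (interval -3.55 to -0.22), with an unadjusted p under 0.05 but a limma adjusted p of 0.9993 over the 10097 genes tested in both, and it was -2.30 (limma, adjusted p = 0.992) without the number 3 libraries. Of the 10 genes, 1 (Abca1) had an unadjusted p under 0.05 in this test, as had 1.71% of all genes. Abca1 and Cd36 did so (2 of the 10) with the replicate block, beside 5.52% of all genes, and without number 3, beside 3.22%. Resident Mϕ genes summed to 867.0 to 5924 rpm in F4/80hi VEH and 1109 to 4114 in F4/80hi CIII, and genes of monocyte-derived Mϕ to 1256 to 4081 and 1554 to 15106. Their part in the values of Abca1 was not tested.

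Abcg1 (chr17:31057675-31117988, plus strand), the other exporter, had 94.3, 119.4 and 202.8 normalized counts with VEH and 117.0, 86.8 and 253.2 with CIII in F4/80lo Mϕ. Abcg1 in F4/80hi Mϕ had 38.6, 138.5 and 143.6 with VEH and 135.0, 140.6 and 126.4 with CIII. VEH 1 stood below the other F4/80hi libraries, which were within a narrow range. Abcg1 had log2 fold changes of 0.06 ± 0.46 (limma, adjusted p = 0.9996) for F4/80lo and 0.54 ± 0.50 (limma, adjusted p = 0.992) for F4/80hi Mϕ, and in the latter -0.07 without VEH 1 and 0.90 without the number 3 libraries. Apoe (chr7:19696109-19699188, minus strand), the secreted cholesterol acceptor, had 3654, 2951 and 419.7 normalized counts with VEH and 3990.2, 8871 and 1846 with CIII in F4/80lo Mϕ. Apoe in F4/80hi Mϕ had 4091, 3731 and 285.1 with VEH and 3896, 7521 and 3898 with CIII. VEH 3 was the lowest and CIII 2 the highest library of Apoe in both subpopulations, and Apoe was higher with CIII for 3 of 3 replicate numbers for F4/80lo and 2 of 3 for F4/80hi Mϕ. Apoe had log2 fold changes of 1.28 ± 0.81 (limma, adjusted p = 0.9996) for F4/80lo and 1.57 ± 0.95 (limma, adjusted p = 0.992) for F4/80hi Mϕ, and without the number 3 libraries 0.86 and 0.47. Without VEH 3 alone they were 0.29 and 0.31, and the other fits without 1 library gave 0.71 to 1.85 and 1.25 to 2.23, so much of the difference in Apoe rests on VEH 3.

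Of the receptors, Nr1h3 (chr2:91184061-91202834, minus strand) had 23.3, 19.3 and 43.3 normalized counts with VEH and 6.38, 31.98 and 38.7 with CIII in F4/80lo Mϕ. Nr1h3 in F4/80hi Mϕ had 26.6, 14.4 and 28.3 with VEH and 20.9, 25.2 and 29.0 with CIII, so its treatments overlapped in both subpopulations. Nr1h3 had log2 fold changes of -0.39 ± 0.67 (limma, adjusted p = 0.9996) for F4/80lo and 0.16 ± 0.44 (limma, adjusted p = 0.9992) for F4/80hi Mϕ. Pparg (chr6:115360951-115490399, plus strand) was close to the limit of counting, with 0 to 20 reads per library. Its normalized counts were 14.0, 5.13 and 1.67 with VEH and 4.26, 2.28 and 12.2 with CIII in F4/80lo Mϕ. In F4/80hi Mϕ they were 16.0, 26.1 and 0 with VEH and 5.05, 14.4 and 4.38 with CIII, where the 0 of VEH 3 allows up to 3.14 normalized counts, for counting error only. At this depth no difference of Pparg was detectable (log2 fold change -0.04 ± 0.93 for F4/80lo and 0.04 ± 1.18 for F4/80hi Mϕ, limma, adjusted p = 0.9996 and 0.9992), and the intervals reached from -2.07 to 2.0 and from -2.62 to 2.70. Without the number 3 libraries the values of Pparg were -1.21 (interval -3.51 to 1.10, limma, adjusted p = 0.895) and -1.15 (interval -2.86 to 0.56, limma, adjusted p = 0.709).

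**Figure D3:**
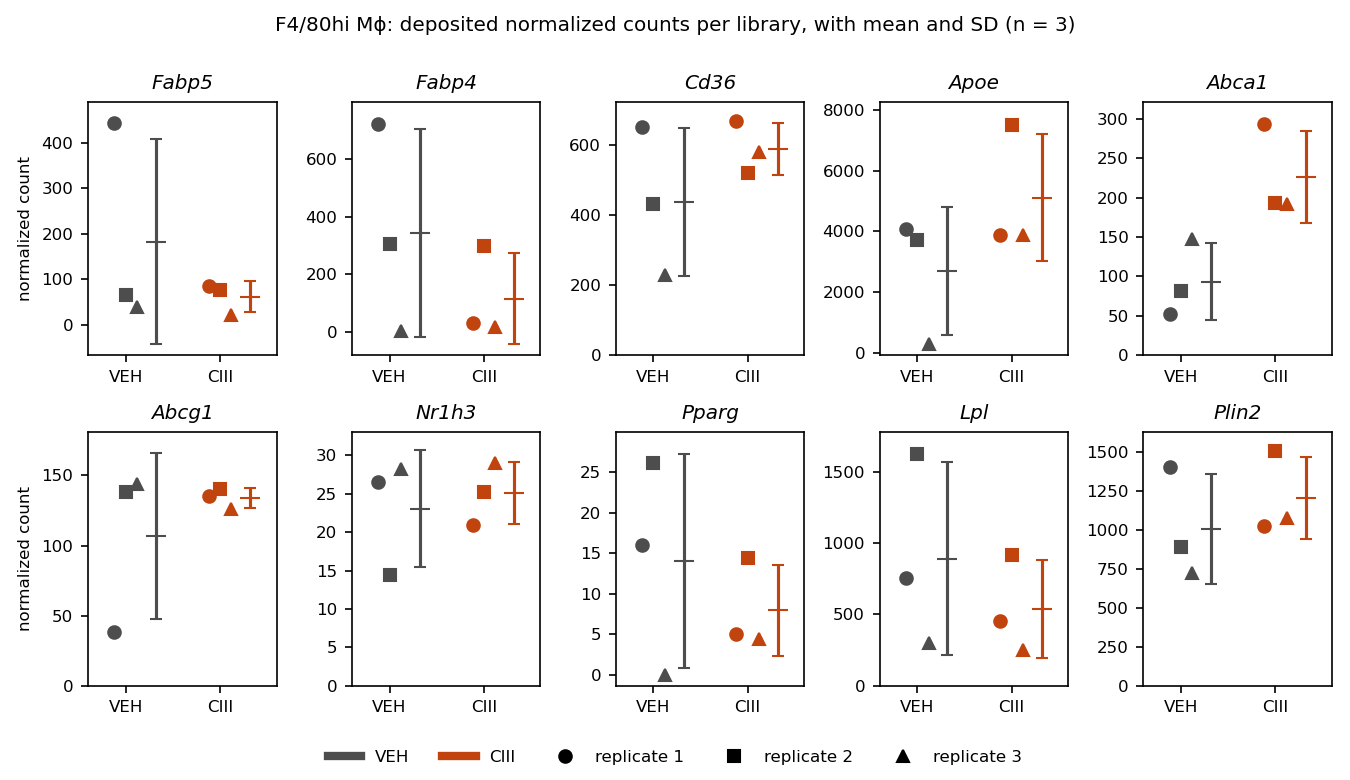
Deposited normalized counts of the 10 genes in F4/80hi Mϕ on linear axes, drawn as for F4/80lo Mϕ with mean and SD (n = 3). Abca1 was the only panel in which all CIII libraries (191.5 to 293.8) lay above all VEH libraries (51.9 to 147.8), and the VEH mean of Fabp5 was set by the 442.8 of library 1. Treatments lay apart, in either direction, for 10.5% of all genes tested.

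Levels of the 10 genes were compared next between the subpopulations. The authors normalized the tables of the subpopulations separately, so whole reads were recovered from both and scaled together over the 12 libraries with TMM, as rpm. Fabp5, Fabp4 and Plin2 were lower in the F4/80lo than in the F4/80hi library in 6 of 6 pairs of the same treatment and number. This held for 5.12% of the 10726 genes tested.

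Fabp5 had 79.8, 16.5 and 26.8 rpm in F4/80lo VEH and 468.4, 69.6 and 42.6 in F4/80hi VEH. It had 11.6, 26.5 and 6.61 rpm in F4/80lo CIII and 94.3, 83.5 and 24.7 in F4/80hi CIII. F4/80hi Mϕ had 1.59 to 8.11 times the level of their F4/80lo partner (median 3.98), while the ranges of the subpopulations overlapped when pairs were set aside. Ordered by the median, Fabp5 ran from F4/80hi CIII (83.5 rpm) over F4/80hi VEH (69.6) and F4/80lo VEH (26.8) to F4/80lo CIII (11.6), and neighbouring groups in this order overlapped. Fabp4 had 134.4, 69.7 and 1.74 rpm in F4/80lo VEH and 765.3, 325.9 and 4.48 in F4/80hi VEH. It had 7.99, 57.4 and 3.31 in F4/80lo CIII and 36.0, 323.6 and 18.1 in F4/80hi CIII, which is 2.57 to 5.69 times the partner's level (median 5.07) over the 6 pairs. For number 3 these ratios rest on few reads of Fabp4, 5 in F4/80lo and 4 in F4/80hi with VEH and 3 and 30 with CIII, of which 3 to 5 are at or near the 3 reads that a count of 0 allows. The difference between partners of Fabp4 was narrower than the range over libraries of 1 subpopulation. Plin2 had 871.6, 477.5 and 555.9 rpm in F4/80lo VEH and 1487, 948.4 and 772.9 in F4/80hi VEH. It had 807.9, 706.3 and 629.1 in F4/80lo CIII and 1138, 1640.2 and 1188 in F4/80hi CIII. F4/80hi Mϕ had 1.39 to 2.32 times the Plin2 level of their partner (median 1.80).

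**Figure D4:**
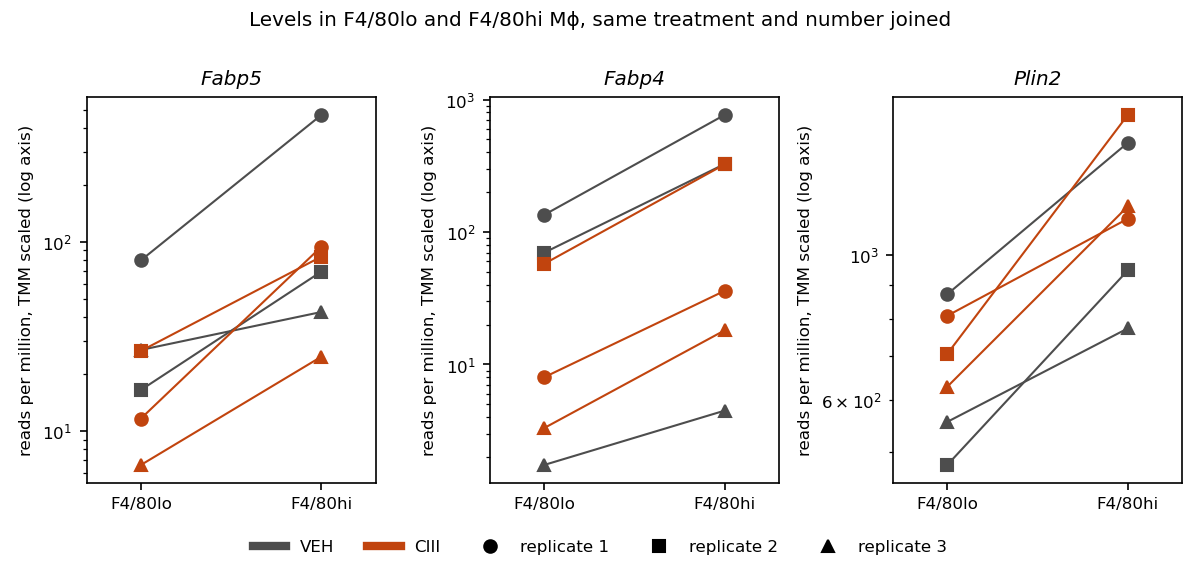
TMM-scaled rpm on log axes of Fabp5, Fabp4 and Plin2, with each line joining the F4/80lo and F4/80hi library of the same treatment and replicate number. All 6 lines of each gene rise toward F4/80hi, by 1.59 to 8.11 times for Fabp5, 2.57 to 5.69 times for Fabp4 and 1.39 to 2.32 times for Plin2.

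Without regard to pairs, limma called 2 of the 10726 genes (0.0186%) and 0 of the 10 at an adjusted p under 0.05, with log2 differences (F4/80lo minus F4/80hi) of -1.92 ± 0.60 for Fabp5 (limma, adjusted p = 0.322), -0.81 ± 0.25 for Plin2 (limma, adjusted p = 0.322) and -2.06 ± 1.25 for Fabp4 (limma, adjusted p = 0.652). That of Fabp4 was -1.21 without F4/80lo VEH 3 and -3.13 without F4/80hi VEH 3. The replicate numbers paired the libraries (correlation of deviations from the group means 0.263 to 0.691 between partners). With the number as a block, Fabp5 (limma, adjusted p = 0.0193) and Plin2 (limma, adjusted p = 0.0351) passed, as did 1.21% of all genes in the lower direction, and Fabp4 had a limma adjusted p of 0.0843. In the same block without the number 3 libraries, a fit added after seeing the data, Fabp5 (limma, adjusted p = 0.0260) and Cd36 (0.0443) passed, beside 2.35% of all genes in the lower direction, whereas Fabp4 (0.0514) and Plin2 (0.0606) did not. With each pair of the same treatment and number as a block, 3 of the 10 genes were lower in F4/80lo Mϕ, beside 2.12% of all genes. These were Fabp4 (-2.06 ± 0.26, limma, adjusted p = 0.00022), Fabp5 (-1.92 ± 0.28, limma, adjusted p = 0.00075) and Plin2 (-0.81 ± 0.17, limma, adjusted p = 0.0083). This block was chosen after seeing the data. With numbers 1 and 2 alone in the same block the same 3 genes passed, with log2 differences of -2.29, -2.26 and -0.85, beside 2.63% of all genes in that direction. DESeq2 on the recovered reads, with no block, called Fabp5 (-2.23, adjusted p = 0.0254) beside 0.552% of all genes in that direction, and edgeR called 2 genes and 0 of the 10. Without the number 3 libraries and with no block, 0 of the 10 genes passed, with a smallest limma adjusted p of 0.0793 for Fabp5.

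The other members showed smaller or less even differences between the subpopulations. Cd36 was about level in VEH (log2 difference -0.04 ± 0.41, limma, adjusted p = 0.996) and lower in F4/80lo in 3 of 3 CIII pairs (-1.31 ± 0.41, limma, adjusted p = 0.838). Abca1 was higher in F4/80lo in 3 of 3 VEH pairs (0.32 ± 0.56, limma, adjusted p = 0.971) and lower in 3 of 3 CIII pairs (-1.62 ± 0.56, limma, adjusted p = 0.860). Neither passed, and these values share libraries with the treatment comparisons above. Over both treatments the log2 differences were -0.24 ± 0.70 for Apoe, 0.16 ± 0.37 for Abcg1, -0.11 ± 0.42 for Nr1h3, -0.43 ± 0.79 for Pparg and 0.09 ± 0.54 for Lpl (limma, adjusted p = 0.920 to 0.977). Their 95% intervals were -1.73 to 1.26, -0.63 to 0.95, -1.02 to 0.80, -2.13 to 1.27 and -1.06 to 1.24, so differences of up to that size are not excluded. The log2 difference of Pparg was -1.29 (interval -2.62 to 0.027, limma, adjusted p = 0.316) without the number 3 libraries. The median over the 10 genes was -0.54, beside -0.003 over all genes tested.

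**Figure D5:**
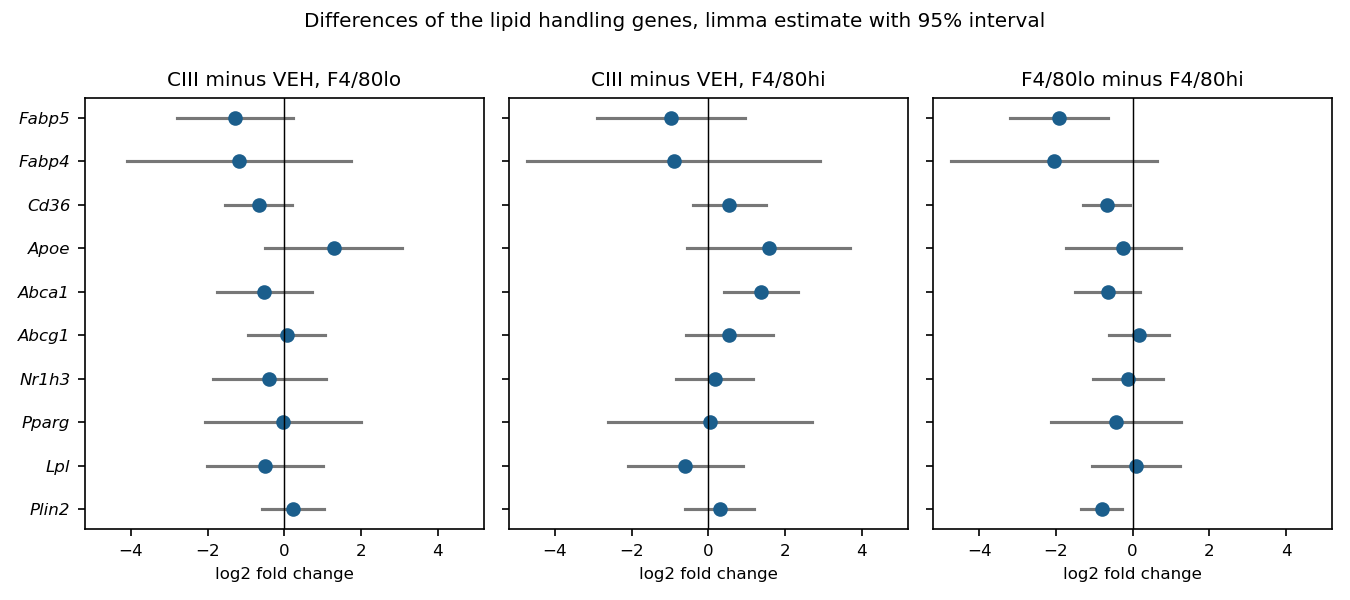
Log2 fold changes (horizontal axis) of the 10 genes with their 95% intervals from limma without a block, with 1 panel for the treatments in each subpopulation (CIII minus VEH) and 1 for F4/80lo minus F4/80hi. Between treatments the interval of Abca1 in F4/80hi Mϕ (0.40 to 2.33) lay above 0 and the others held 0, and between subpopulations those of Fabp5, Plin2 and Cd36 lay below 0.

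Genes of resident Mϕ were set beside these levels. All 10 of the resident genes were read in each group. In the limma fit over 12 libraries without a block, 10 of 10 had lower log2 levels in F4/80lo Mϕ (median -1.76), as had 50.2% of all genes. An unadjusted p under 0.05 was reached by 4 of the 10, beside 9.29% of all genes, and 0 passed at an adjusted p under 0.05. Adgre1, Gata6, Icam2, Cd9, Selp and Garnl3 were lower in F4/80lo in every pair of the same treatment and number, as were 5.12% of all genes. Mertk, Timd4, Prg4 and Alox15 were not. Block fits are not given for these genes. Adgre1 and Mertk of this list encode F4/80 and MerTK, on which the cells were gated. The 10 resident genes summed to 702.1 to 1128 rpm in F4/80lo VEH, 794.4 to 1728 in F4/80lo CIII, 867.0 to 5924 in F4/80hi VEH and 1109 to 4114 in F4/80hi CIII. The part of resident cells in the levels of Fabp5, Fabp4 and Plin2 was not tested. The number 3 libraries held 1.74 to 18.1 rpm of Fabp4 and 6.61 to 42.6 rpm of Fabp5.

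Over the 12 libraries, the genes whose log2 level was most like that of Fabp5 were Tceal9 (Pearson r = 0.908), Wfdc17 (0.905), the ferritin heavy chain gene Fth1 (0.901), the glutathione peroxidase gene Gpx1 (0.900) and the cell cycle inhibitor gene Cdkn2d (0.898), among genes with a mean of at least 10 rpm. These coefficients are descriptions over libraries that share pairs and the subpopulation difference. Wfdc17 had 4002 rpm in F4/80hi VEH 1, the library with the most Fabp5, and 100.3 to 1315 in the other 11. Among the members, r with Fabp5 was 0.739 for Fabp4, 0.711 for Plin2, 0.651 for Cd36 and -0.651 for Abcg1. With each subpopulation centred on its own mean, Fabp4 went with Lpl (r = 0.850) and Abca1 with Abcg1 (r = 0.793), and Fabp5 against Abcg1 (r = -0.739). Reads could also fall on copies of a member, and of the processed pseudogenes with such a name Fabp5l2 and Gm13862 had 4 reads each over the 12 libraries.

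The wider pathway was read from 5 lists with 109 genes. Between treatments, limma called 0 genes of any list at an adjusted p under 0.05, also with the replicate block. In F4/80hi Mϕ, 14 of 16 tested genes of cholesterol efflux, lysosomal release and LXR targets had a higher mean log2 level with CIII (median log2 fold change 0.33, beside 0.05 over all genes), and in F4/80lo Mϕ 11 of 16 (median 0.17, beside -0.05). The 10 genes of monocyte-derived Mϕ, MHCII genes among them, summed to a median of 1874 rpm in F4/80hi VEH and 5550.1 rpm in F4/80hi CIII. Of these genes 8 were tested in F4/80hi Mϕ, 6 with a higher and 2 with a lower mean log2 level with CIII. Their part in the counts of the efflux and LXR list was not tested. Of the efflux and LXR list, Pltp, which encodes the phospholipid transfer protein, had a mean normalized count of 367.1 ± 332.9 (SD, n = 3) in VEH libraries and 720.2 ± 190.0 in CIII libraries of F4/80hi, and 431.0 ± 308.3 and 788.5 ± 198.1 in F4/80lo Mϕ. Npc1, which lets cholesterol out of lysosomes, had 110.7 ± 28.4 and 179.6 ± 22.6 in F4/80hi Mϕ, a log2 fold change of 0.72 ± 0.34 (limma, adjusted p = 0.992). These counts and those that follow use the sign of the log2 fold change, which for weak or uneven genes can differ from that of the plain means. Of the lipid droplet and triglyceride genes, 9 of 12 were higher with CIII in F4/80hi (median 0.41) and 4 of 11 in F4/80lo Mϕ (median -0.07). Of the genes of fatty acid uptake, binding and activation, 10 of 16 were higher in F4/80hi (median 0.22) and 8 of 16 in F4/80lo Mϕ (median -0.03). Marco, a scavenger receptor gene of that list, had a mean normalized count of 212.6 ± 147.9 in VEH libraries and 40.2 ± 15.5 in CIII libraries of F4/80lo Mϕ, a log2 fold change of -2.21 ± 0.53 (limma, adjusted p = 0.9996). PPAR receptors and fatty acid oxidation genes were higher with CIII in 10 of 19 and 7 of 18 genes (medians 0.03 and -0.02), and those of cholesterol and fatty acid synthesis in 9 of 22 and 12 of 22 (medians -0.02 and 0.28).

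Between subpopulations, limma without a block called 0 genes of the 5 lists. With the number as a block it called 6, all lower in F4/80lo Mϕ, as were 1.21% of all genes. In that block without the number 3 libraries it called 5 of these 6 and not Elovl5, beside 2.35% of all genes, and in the higher direction the synthesis genes Srebf2 and Cyp51, beside 2.09%. With each pair of the same treatment and number as a block it called 9 list genes, the 6 and Msr1, Dbi and Acadl, all lower in F4/80lo Mϕ, beside 2.12% of all genes. The fatty acid uptake list had 12 of 16 genes lower in F4/80lo (median log2 difference -0.29) and 2 called, Marco and the fatty acid binding protein gene Fabp7. Marco ranged from 22.1 to 371.1 rpm for F4/80lo and from 169.1 to 2401 for F4/80hi Mϕ (-2.80 ± 0.53 without the block; limma, adjusted p = 0.00182 with it). The fatty acid oxidation list had 14 of 18 genes lower (median -0.45) and 1 called, Hadh, which encodes a dehydrogenase of mitochondrial beta-oxidation, with 17.7 to 36.5 rpm for F4/80lo and 36.2 to 94.3 for F4/80hi Mϕ (limma, adjusted p = 0.0316 with the block). Of the efflux and LXR list 8 of 16 were lower (median -0.04) and 1 called, the lysosomal cholesterol carrier gene Npc2. Of the lipid droplet list 5 of 11 were lower (median 0.10) and 1 called, Hilpda, an inhibitor of the lipase ATGL. Of the synthesis list 7 of 22 were lower and 15 higher in F4/80lo Mϕ (median 0.29), with 1 called, Elovl5, named after its values were seen. The lists were chosen with results of these data known, and the counts describe these libraries.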

How the data were processed

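FACS-sorted F4/80lo and F4/80hi Mϕ were sequenced by the authors with a 3′ mRNA kit carrying unique molecular identifiers, and the Bluebee QuantSeq pipeline was run (trimming with Bbduk, STAR on GRCm38, collapse of identifiers, HTSeq-count, DESeq2 size factors). The deposited signal values are normalized counts, 1 table per subpopulation, each normalized separately by the authors. All values (100%) were whole multiples of 1 read (tolerance 0.01), and whole reads were recovered, on which edgeR called 0 genes in F4/80lo, 0 in F4/80hi and 2 between them. Symbols and GRCm38 coordinates came from GENCODE for 47224 of 47643 identifiers. Depth was 426624 to 3389448 reads on genes, and a count of 0 allows up to 3 reads, 0.885 to 7.03 per 1e+06 reads (rpm), for counting error only.

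CIII and VEH were compared within each table with limma 3.58.1 (R 4.3.3, two-sided, trended empirical Bayes) on log2(normalized count + 1), in genes with a mean of at least 3. Such fold changes understate those of weak genes. Levels were tested in the same way on TMM-scaled rpm (edgeR 4.0.16) over 12 libraries. Adjustment was by Benjamini-Hochberg over all genes, with a threshold of 0.05. Alternatives were a pseudocount of 5, no minimum, other scaling, the replicate block, edgeR, DESeq2 1.42.0 and leaving out libraries. The limma fits were run on simulated reads with known changes. Those reads had no pairs and no effect of the replicate number, so the run cannot speak for the blocks in these libraries. Figures were drawn with matplotlib 3.10.9.

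Same-numbered libraries deviated together: the correlation over genes was 0.121, 0.238 and 0.504 between treatments in F4/80lo, 0.216, 0.412 and 0.639 in F4/80hi, and 0.263 to 0.691 between subpopulations, so the numbers were taken as pairs from these correlations alone. VEH 1 correlated more with CIII 2 (0.171 in F4/80lo and 0.285 in F4/80hi) than with CIII 1, and between treatments mainly number 3 was set apart from numbers 1 and 2 (-0.525 to -0.163). What a number marks is not given in the sources used here, and p-values measure only the spread between these libraries, which may be technical. All 10 members are named. Of each of 5 pathway lists at most the 4 genes with the smallest p in a comparison are named, with Elovl5 added after its values were seen, besides the 5 genes most correlated with Fabp5, marker genes of 10 lists and pseudogenes. The members and lists were chosen with earlier results of these data known.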

Additional observations from a re-analysis of the deposited data

Results flagged for a closer look

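Abca1 was flagged because its response to CIII differed between the subpopulations in a test of the difference itself. The log2 fold changes were 1.37 in F4/80hi and -0.52 in F4/80lo Mϕ, and the F4/80lo value less the F4/80hi value was -1.88 ± 0.78 (SE). The unadjusted p was under 0.05 and the result failed the correction (limma, adjusted p = 0.9993 over 10097 genes, and 0.886 with the replicate block). The difference lay between -2.30 and -1.34 in the fits without single libraries. Groups of 3 libraries were too small for a test of single outlying libraries.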

How the results depend on the processing

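The replicate block changed no call between treatments at an adjusted p under 0.05. Between subpopulations, members called were 2 with the replicate block (Fabp5 -1.92), 1 with DESeq2 (Fabp5 -2.23), 3 with the block by treatment and number (Fabp5 -1.92), 3 with that block and numbers 1 and 2 alone (Fabp5 -2.26), and 2 with the replicate block and numbers 1 and 2 alone (Fabp5 -2.26), against 0 in limma and edgeR without a block. All genes called there were 2 without a block, 10 with a pseudocount of 5, 0 with no minimum, 4 with rpm of the total, 279 with the replicate block, 140 with DESeq2, 463 and 527 with the pair blocks, 476 with the replicate block and numbers 1 and 2 alone, and 254 without number 3. Directions turned for Pparg in F4/80lo with rpm of the total (0.010), for Pparg in F4/80hi with a pseudocount of 5 (-0.28), edgeR (-0.83) and DESeq2 (-0.84), and, between subpopulations, for Nr1h3 with edgeR (0.065), DESeq2 (0.045) and VEH alone (0.20), Abca1 with VEH alone (0.34), and Abcg1 with CIII alone (-0.13) and in either block with numbers 1 and 2 alone (-0.070). None of these had passed the test, and the causes were not tested.

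Leaving out libraries turned the direction of further uncalled log2 fold changes. In F4/80lo they ran from -0.94 to 0.029 for Abca1, -0.38 to 0.38 for Abcg1, -0.84 to 0.37 for Nr1h3, -1.21 to 0.59 for Pparg and -1.40 to 0.23 for Lpl. In F4/80hi they ran from -1.67 to 0.053 for Fabp5, -3.08 to 0.49 for Fabp4, -0.075 to 0.90 for Abcg1, -0.14 to 0.33 for Nr1h3 and -1.43 to 0.95 for Pparg. Between subpopulations they ran from -0.85 to 0.24 for Apoe, -0.15 to 0.34 for Abcg1, -0.37 to 0.26 for Nr1h3, -1.29 to 0.020 for Pparg and -0.27 to 0.52 for Lpl, and the difference in response of Fabp5 from -1.34 to 0.38. Depth limits Pparg most, with 0 to 20 reads per library.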

Other observations

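Other genes of the fatty acid binding protein family were read besides Fabp5 and Fabp4, and they were chosen after their values were seen. Fabp7, the brain form, had 68.4, 38.0 and 3.83 rpm in F4/80lo VEH and 233.5, 174.1 and 8.96 in F4/80hi VEH. With CIII the F4/80hi libraries held 87.1, 80.9 and 10.2 rpm and the F4/80lo libraries 19.6, 8.83 and 5.51. Fabp7 too was lower in F4/80lo in 6 of 6 pairs, as were 5.12% of all genes, and lowest in number 3. Fabp3, the heart form, had 123 reads over the 12 libraries, between 2.20 and 20.9 rpm, and was among the genes most like Fabp5 (r = 0.865). On these few reads it was also lower in F4/80lo in 6 of 6 pairs. Fabp1, Fabp2, Fabp6, Fabp9 and Fabp12 had 0 reads in all 12 libraries, although Fabp9 lies between Fabp5 and Fabp4.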
